A study of Danio rerio with 8 samples.

Results

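The effect of doxycycline on the liver of zebrafish without a transgene was measured by comparing 2 libraries from wild-type siblings on doxycycline (M-D+) with 2 libraries from untreated wild-type siblings (M-D-), which are 4 of the 8 libraries of a study of Myc-induced liver cancer. In that study doxycycline is the switch: transgenic fish, labelled Tg(fabp10:TA; TRE:Myc; krt4:GFP), make Myc in the liver when the drug is given. The wild-type siblings carry none of these inserts, so M-D+ is the drug control. Doxycycline was given from 21 days post fertilization in 6 L tanks that held around 25 adults, and neither the dose nor the age at which the liver was taken is stated in the labels. Transgenic fish without doxycycline (M+D-, 2 libraries) served as further untreated livers, and their values are given for part of the genes. RNA was total liver RNA, and tags next to the 3' end of transcripts were counted on the SOLiD platform (3' RNA-SAGE). The labels do not tell if replicate libraries stem from different fish, different pools or 1 RNA sample, and the p-values therefore measure a spread that could be technical. In whole liver, fewer cells of a type and less RNA per cell cannot be told apart.

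Doxycycline is a tetracycline antibiotic that blocks protein synthesis on bacterial ribosomes, and in animal cells it also slows the related ribosomes of mitochondria. Cells answer faults in mitochondrial protein synthesis partly through the integrated stress response, in which the transcription factor ATF4 raises genes of amino acid synthesis and transport. The hepatocyte, the main cell of the liver, secretes most plasma proteins through the endoplasmic reticulum, makes and exports lipids, and clears drugs with cytochromes P450.

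Library totals were 4402176 and 4611809 tags in M-D- and 1682372 and 4414589 tags in M-D+, so M-D+ library 1 was the shallowest. The deposited values are CPM, the tags of a transcript row relative to all tags of its library. Of the 14073 rows listed in any of the 4 libraries, 4276 reached at least 5 CPM in at least 2 of them and were tested. The 2 M-D+ libraries were less alike than any other pair of replicates: the Pearson r of their log2 values across the tested rows was 0.892, against 0.96 for M-D-, 0.971 for M+D- and 0.932 for M+D+. In M-D+, 207 rows differed more than 4-fold between the libraries, against 68 in M-D-. The hepatocyte marker fabp10a, a liver fatty acid-binding protein, was abundant in all 4 libraries, at 157241 and 162367 CPM in M-D- and 79291 and 210286 CPM in M-D+. The 2 M-D+ libraries lay on either side of both untreated ones. The summed share of the hepatocyte markers was 19.8% and 19.7% of tags in M-D-, against 10.3% and 25.1% in M-D+.

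In the M-D+ libraries the most abundant rows took a smaller share of the tags. The 50 most abundant rows held 66.1% and 63.5% of the tags of the M-D- libraries, 61.4% and 62.8% of those of the untreated M+D- libraries, and 53.1% in M-D+ library 1, and M-D+ library 2 also lay below all 4 untreated libraries. The M-D- libraries held 3395 and 3672 rows at or above 5 CPM, and the M-D+ libraries 4733 and 4452, while the number of rows listed at all was 10393 and 10951 for M-D- libraries and 10031 and 11733 for M-D+ libraries. The median log2 change of the 4276 rows was 0.73 (1.66-fold), and 3577 of them had a positive change. TMM scaling, which resets the libraries so that most rows do not move, gave factors of 0.882 and 0.991 to the M-D- libraries and 1.58 and 1.48 to the M-D+ libraries, and brought that median to 0.07.

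**Figure D1:**
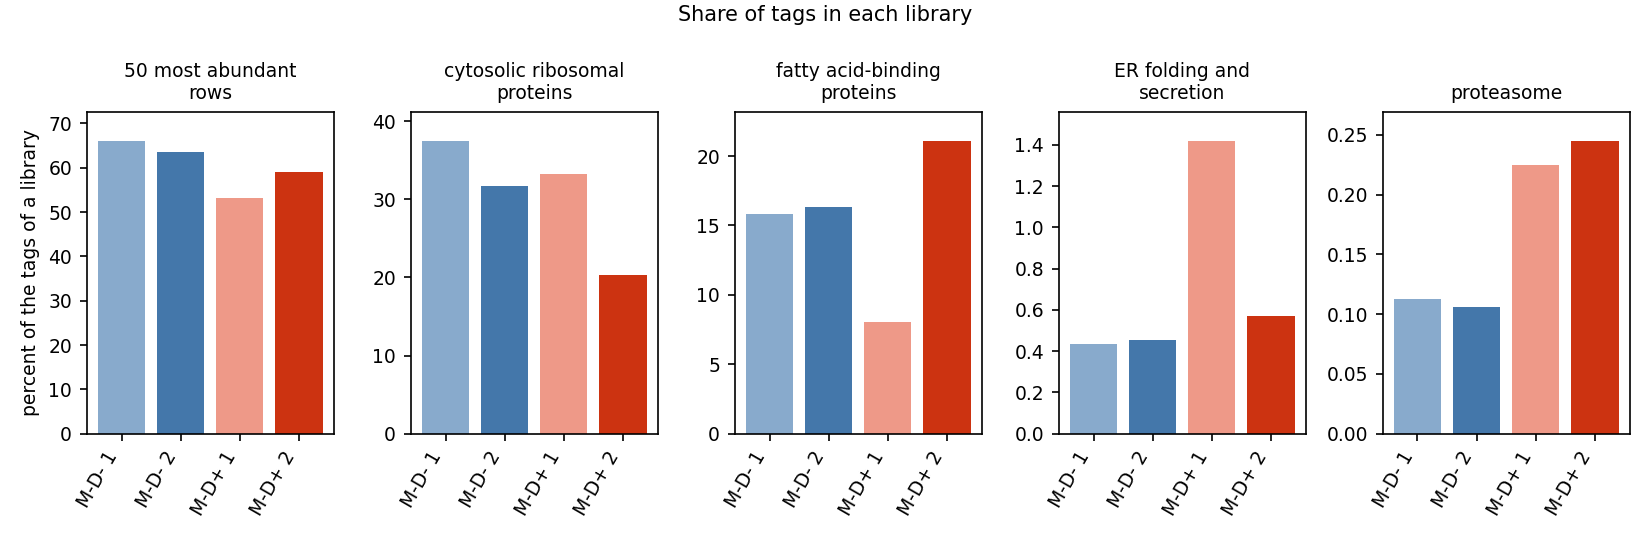
Percent of the tags of each library (y axis, a separate scale in each panel) held by the 50 most abundant rows and by 4 gene lists, in the 2 M-D- and 2 M-D+ libraries (bars). Both M-D+ libraries lie below both M-D- libraries for the top 50 rows and above them for the proteasome, while the fatty acid-binding proteins split the M-D+ libraries, at 8.03% and 21.1%.

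**Figure D2:**
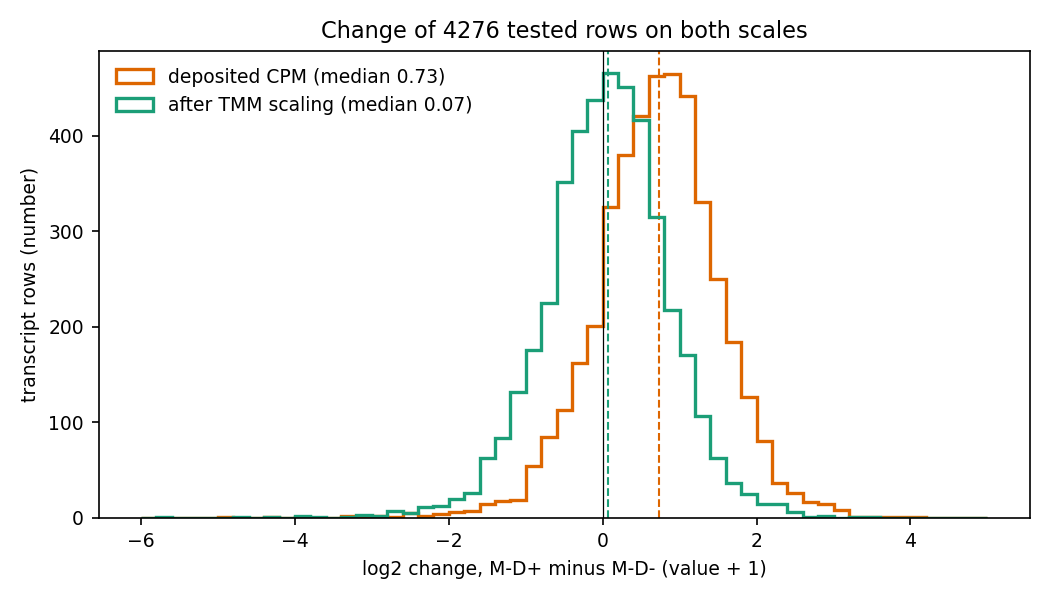
Number of tested rows (y axis) by log2 change from M-D- to M-D+ (x axis) on the deposited CPM scale and after TMM scaling, with dashed lines at the medians. On the deposited scale 3577 of the 4276 rows lie to the right of 0, with a median of 0.73, and after scaling the median is 0.07.

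The number of rows that passed the test therefore turned on the scale. On the deposited scale limma called 484 rows higher in M-D+ (11.3% of those tested) and 27 lower (0.631%) at an adjusted p below 0.05. After TMM scaling it called none higher (0.0%) and 1 lower (0.0234%), although 409 rows were higher and 384 lower at an unadjusted p below 0.05. On the recovered tags, the edgeR quasi-likelihood test called 0 rows (810 at an unadjusted p below 0.05) and DESeq2 called 31 higher and 132 lower. Both of these tests rescale the libraries, and their median log2 changes were 0.09 and 0.06, near that of the TMM scale. Of the rows called by limma on the deposited scale, DESeq2 also called 24 of the 484 higher ones and 15 of the 27 lower ones. DESeq2 gave no adjusted p for 2487 tested rows, which it could therefore not call. The calls of limma on the deposited scale needed both control libraries: without M-D- library 1, or without M-D- library 2, no row was called, and this holds for every gene called below. They numbered 0 also when only the 4 libraries of the comparison entered the fit. A call below is a call of limma on the deposited scale unless another is named, and a change is on that scale unless it is said to be after TMM scaling, which gives the change relative to the shift of all rows.

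In the 484 rows called higher, both M-D+ libraries lay above both M-D- libraries, and in 480 they still did after TMM scaling. Over all tested rows, both M-D+ libraries lay above both M-D- libraries in 60.5% on the deposited scale and in 27.6% after TMM scaling. Both M-D+ libraries lay above all 4 untreated libraries, M+D- included, in 472 of the 484, beside 49.9% of all tested rows. In all 27 rows called lower, both M-D+ libraries lay below both M-D- libraries on either scale, against 5.64% of all tested rows on the deposited scale and 22.6% after TMM scaling, and in 21 they lay below all 4 untreated libraries, beside 3.51% of all rows. All 27 had an unadjusted p below 0.05 after TMM scaling, as did 349 of the 484 called higher. A call picks rows in which the groups stand apart, so these counts are no further support for the calls. TMM scaling lowers M-D+ values relative to M-D- values, so rows that lay lower before it could not come to overlap. A row could pass the level filter through 1 group only: 99 of the rows called higher passed it only through M-D+ and 11 of the rows called lower only through M-D-.

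The gene with the largest change among those called higher was dhrs11b.2, of the short-chain dehydrogenase/reductase family. It stood at 9.31 and 6.07 CPM in M-D- and at 253 and 89.7 CPM in M-D+, a log2 change of 4.15 ± 0.84 (SE, limma adjusted p = 0.0369) and of 3.46 ± 0.81 after TMM scaling. The M+D- libraries, also untreated, stood at 27.5 and 69.4 CPM, above M-D- and below both treated libraries. Next among called genes with a mean of at least 20 CPM was the readthrough locus nmnat1-rbp7a, at 5.22 and 2.39 CPM in M-D- and 52.9 and 37.6 CPM in M-D+ (3.31 ± 0.41 on the log2 scale, and 2.63 ± 0.43 after TMM scaling). The homeobox gene homeza had the smallest adjusted p among the genes called higher. Its levels were 7.72 and 7.16 CPM in M-D-, 6.97 and 5.30 CPM in M+D-, and 73.1 and 58.9 CPM in M-D+, a log2 change of 2.98 ± 0.31 (limma adjusted p = 0.0237), or 2.29 ± 0.32 after TMM scaling (limma adjusted p = 0.0525). The 2 treated libraries were close to each other and far above all 4 untreated ones. The enzyme gene papss2b, whose product makes the sulfate donor for sulfation, went from 1.82 and 5.42 CPM to 48.2 and 26.1 CPM (log2 change 3.10 ± 0.48, and 2.44 ± 0.45 after TMM scaling). The granulin gene grna.1, of a family of secreted growth factors, was at 8.63 and 9.54 CPM in M-D- and 42.2 and 104 CPM in M-D+ (log2 change 2.74 ± 0.59, and 2.05 ± 0.59 after TMM scaling).

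The fatty acid elongase gene elovl6 was at 4.77 and 4.55 CPM in M-D- and 26.8 and 54.1 CPM in M-D+, giving a log2 change of 2.79 ± 0.49 (2.12 ± 0.53 after TMM scaling). The ceramide-1-phosphate transfer protein gene cptp was at 3.86 and 3.47 CPM and then at 66.6 and 17.4 CPM, with a log2 change of 2.92 ± 0.57 (2.25 ± 0.54 after TMM scaling). The gene mid1ip1b, whose mammalian counterpart stimulates acetyl-CoA carboxylase, was at 7.04 and 4.12 CPM and then at 68.4 and 26.1 CPM, with a log2 change of 2.76 ± 0.49 (2.08 ± 0.50 after TMM scaling). Both elovl6 and cptp passed the level filter through M-D+ only, and in cptp and mid1ip1b library 1 was the higher of the treated libraries, while in elovl6 it was library 2. The apolipoprotein gene apoa4b.2, which codes for a lipid carrier of the plasma, was at 83.8 and 263 CPM in M-D- and 1063 and 743 CPM in M-D+ (log2 change 2.57 ± 0.51, and 1.86 ± 0.46 after TMM scaling). Its M+D- libraries stood at 362 and 396 CPM, above M-D- and below both treated libraries. The gene apoa4b.2 was the only 1 of 10 tested apolipoprotein rows to be called, and the median of that list was 0.33, or -0.38 after TMM scaling. The lipid droplet coat gene plin2 was at 1.59 and 0.43 CPM and then at 10.7 and 16.5 CPM, with a log2 change of 2.90 ± 0.49 (2.28 ± 0.51 after TMM scaling), and it too passed the filter through M-D+ only. ATP citrate lyase, aclya, which makes cytosolic acetyl-CoA, was at 6.81 and 8.89 CPM and then at 37.5 and 36.7 CPM, with a log2 change of 2.12 ± 0.44 (1.44 ± 0.48 after TMM scaling). Its M+D- libraries stood at 15.3 and 14.15 CPM, above M-D- and below both treated libraries. Of the 11 tested rows of fatty acid and triglyceride synthesis, 4 were called higher and none lower, beside 11.3% higher over all rows, and 2 of the 11 passed the filter only through M-D+. Their median log2 change was 1.27, or 0.58 after TMM scaling, beside 0.73 and 0.07 over all rows.

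**Figure D3:**
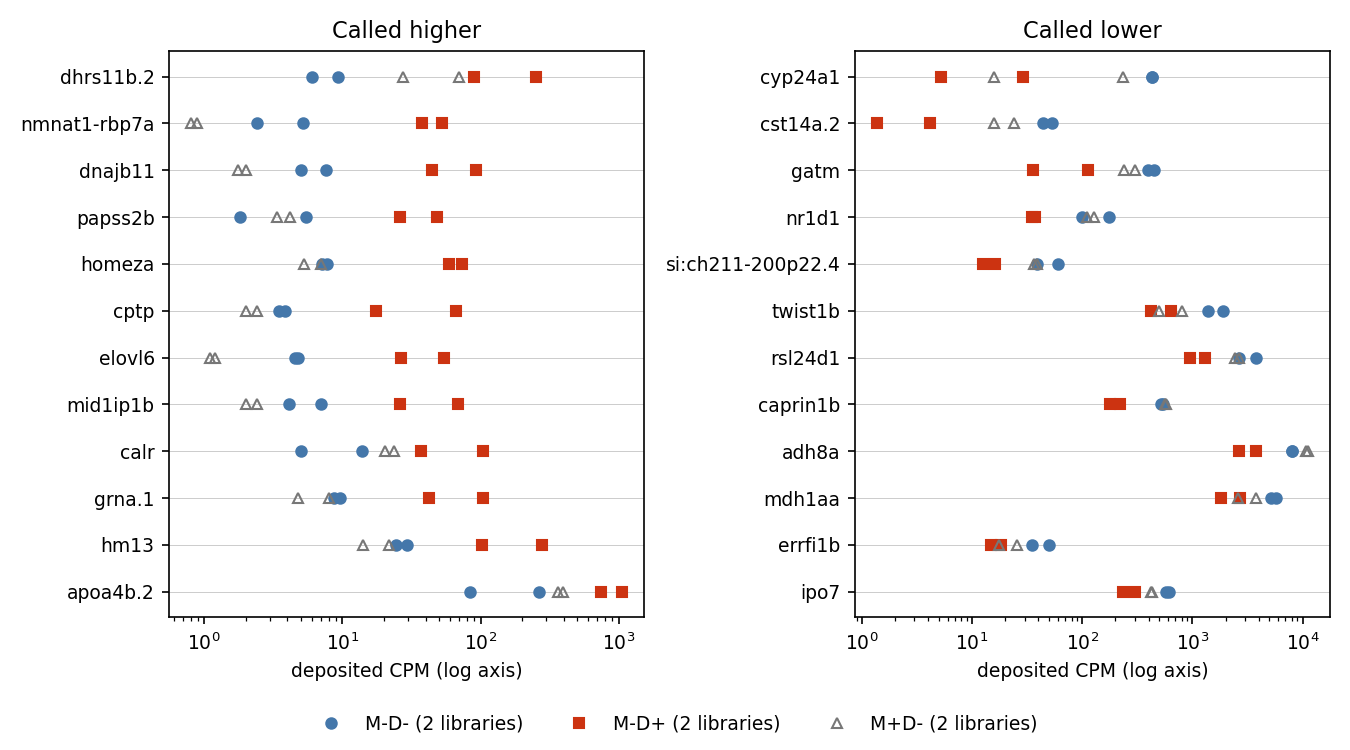
Deposited CPM (x axis, log scale) of the 12 named genes with the largest change called higher (left) and called lower (right) in M-D+, with 1 point per library for M-D- (blue circles), M-D+ (red squares) and the untreated transgenic M+D- (open triangles). The M-D+ points lie apart from the M-D- points in every gene, which the naming rule required. For some genes called lower, such as cyp24a1, an M+D- point lies among or near the M-D+ points.

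The genes called lower were fewer, and they moved against the shift of all rows. The vitamin D 24-hydroxylase gene cyp24a1, whose enzyme breaks down active vitamin D, was at 429.8 and 430.4 CPM in M-D- and at 29.1 and 5.21 CPM in M-D+. This was a log2 change of -4.98 ± 1.15 (limma adjusted p = 0.0428), or -5.62 ± 1.15 after TMM scaling (limma adjusted p = 0.0873). The untreated M+D- libraries stood at 15.7 and 235 CPM, so a low cyp24a1 level was also seen in 1 library without the drug. Creatine synthesis was represented by gatm, glycine amidinotransferase, which makes the creatine precursor. It was at 393 and 450 CPM in M-D-, 303 and 242 CPM in M+D-, and 112 and 36.0 CPM in M-D+, a log2 change of -2.70 ± 0.51 (limma adjusted p = 0.0349) and of -3.40 ± 0.50 after TMM scaling (limma adjusted p = 0.0607). All 4 untreated libraries lay above both treated ones. The cystatin gene cst14a.2, of a family of cysteine protease inhibitors, was at 53.4 and 43.8 CPM in M-D- and 4.16 and 1.36 CPM in M-D+, a log2 change of -3.82 ± 0.68 (-4.32 ± 0.70 after TMM scaling), and it passed the level filter through M-D- only.

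The clock repressor gene nr1d1 (Rev-erb alpha) was at 175 and 100.4 CPM in M-D-, 127 and 111 CPM in M+D-, and 37.5 and 35.3 CPM in M-D+, giving a log2 change of -1.84 ± 0.34 (-2.53 ± 0.38 after TMM scaling). It was the only 1 of 8 tested circadian clock rows to be called, beside 0.631% called lower and 11.3% called higher over all rows. The list's median was 0.71, beside 0.73 over all rows. The time of day at which livers were taken is not given in the labels. The RNA-binding protein gene caprin1b, known from stress granules, was at 536 and 515 CPM in M-D-, 577 and 566 CPM in M+D-, and 219 and 179 CPM in M-D+. Its log2 change was -1.40 ± 0.28 (limma adjusted p = 0.0369), or -2.11 ± 0.27 after TMM scaling (limma adjusted p = 0.0525). The 4 untreated libraries were within a narrow band, and both treated ones lay below it. Importin 7, ipo7, which carries ribosomal proteins and other cargo into the nucleus, was at 615 and 576 CPM in M-D- and 299 and 234 CPM in M-D+, a log2 change of -1.17 ± 0.28 (-1.87 ± 0.27 after TMM scaling). The gene rsl24d1, a factor of large ribosomal subunit assembly, was at 3772 and 2674 CPM in M-D- and 1308 and 953 CPM in M-D+, a log2 change of -1.51 ± 0.31 (-2.22 ± 0.33 after TMM scaling).

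Among abundant enzymes of central metabolism, the alcohol dehydrogenase gene adh8a was at 8019 and 7986 CPM in M-D-, 11255 and 10740.3 CPM in M+D-, and 2645 and 3797 CPM in M-D+ (log2 change -1.34 ± 0.34, and -2.05 ± 0.33 after TMM scaling). Cytosolic malate dehydrogenase, mdh1aa, was at 5794 and 5151 CPM in M-D- and 2697 and 1823 CPM in M-D+, a log2 change of -1.30 ± 0.33 (-2.01 ± 0.35 after TMM scaling). One of its untreated M+D- libraries, at 2576 CPM, lay between the treated libraries. The other genes of the naming rule called lower were twist1b, si:ch211-200p22.4 and errfi1b, with log2 changes of -1.63 ± 0.36, -1.70 ± 0.32 and -1.29 ± 0.33, or -2.34 ± 0.39, -2.36 ± 0.33 and -1.95 ± 0.35 after TMM scaling. The gene errfi1b codes for a relative of an inhibitor of the EGF receptor known from mammals. For twist1b an untreated M+D- library, at 493 CPM, lay between the treated libraries, at 643 and 417 CPM. For errfi1b an M+D- library, at 17.5 CPM, likewise lay between the treated ones, at 14.9 and 18.1 CPM. In si:ch211-200p22.4 both M+D- libraries lay above both treated ones. The 1 row called after TMM scaling has a GI number but no accession or symbol, and it is given here because of that call, outside the naming rule. It passed the level filter through M-D- only. It was at 49.8 and 41.4 CPM in M-D-, 23.3 and 34.7 CPM in M+D-, and 2.38 and 0.68 CPM in M-D+, a log2 change of -4.70 ± 0.44 after TMM scaling (limma adjusted p = 0.0211).

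After TMM scaling, among the named genes averaging 20 CPM or more, with both M-D+ libraries above both M-D- libraries, those nearest to the threshold, homeza, nmnat1-rbp7a, papss2b and dnajb11 apart, were pkma, pwp1, ckba, sat1a.2, map4k2, tubb2b, itln3 and edem1, none of which passed it. The pyruvate kinase gene pkma was at 12.7 and 16.7 CPM in M-D- and 105 and 61.2 CPM in M-D+ (log2 change 1.68 ± 0.32 after TMM scaling, limma adjusted p = 0.0685). Brain-type creatine kinase, ckba, was at 37.0 and 38.8 CPM in M-D-, 41.0 and 33.4 CPM in M+D-, and 163 and 153 CPM in M-D+ (1.33 ± 0.28 after TMM scaling, limma adjusted p = 0.0926). Spermidine/spermine acetyltransferase, sat1a.2, which starts polyamine breakdown, was at 29.8 and 39.0 CPM and then at 147 and 148 CPM (1.38 ± 0.30 after TMM scaling, limma adjusted p = 0.103). In ckba and sat1a.2 the treated libraries were almost level with each other, and all 4 untreated libraries lay below them. All 8 of these genes were called higher on the deposited scale. On the lower side, itm2ba and btf3 were near the threshold on both scales and passed neither. The gene btf3, a subunit of the complex that meets new chains at the ribosome, was at 1572 and 1165 CPM in M-D-, 1019 and 1119 CPM in M+D-, and 706 and 617 CPM in M-D+ (-1.74 ± 0.31 after TMM scaling, limma adjusted p = 0.066).

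The endoplasmic reticulum list had the largest median of the pathway lists. Of 46 tested rows for folding and secretion, 18 were called higher and none lower, beside 11.3% higher over all rows, and 8 of the 46 passed the filter only through M-D+. The median log2 change was 1.72, or 1.01 after TMM scaling, when both M-D+ libraries lay above both M-D- libraries in 33 rows and below them in none. Over all tested rows these shares were 27.6% and 22.6%. The libraries differed in size of effect: against the mean of M-D- the median after TMM scaling was 1.55 in library 1 and 0.41 in library 2. The list took 0.433% and 0.452% of tags in M-D-, against 1.42% and 0.572% in M-D+. On the deposited scale the medians were 2.28 in library 1 and 1.04 in library 2, beside 0.78 and 0.67 over all rows. The co-chaperone gene dnajb11, a partner of BiP in the endoplasmic reticulum, was at 5.0 and 7.59 CPM in M-D- and 92.7 and 44.2 CPM in M-D+, a log2 change of 3.18 ± 0.55 (2.5 ± 0.52 after TMM scaling). The lectin chaperone gene calr was at 5.0 and 13.9 CPM and then at 103 and 37.2 CPM, a log2 change of 2.74 ± 0.57 (2.06 ± 0.52 after TMM scaling). Its M+D- libraries stood at 20.3 and 23.65 CPM, above M-D- and below both treated libraries. The gene rpn1, a subunit of the complex that attaches sugar chains to new proteins, was at 89.3 and 95.0 CPM and then at 436 and 257 CPM, a log2 change of 1.85 ± 0.32 (1.14 ± 0.30 after TMM scaling). In these 3 genes library 1 was the higher of the treated libraries, and library 2 still lay above both M-D- libraries. The gene edem1, which directs misfolded glycoproteins to degradation, was at 9.31 and 8.46 CPM in M-D-, 10.8 and 7.07 CPM in M+D-, and 47.6 and 33.8 CPM in M-D+, a log2 change of 2.06 ± 0.35 (1.37 ± 0.32 after TMM scaling). Signal peptide peptidase, hm13, which stands outside the list, was at 29.3 and 24.5 CPM in M-D- and 279 and 103 CPM in M-D+, a log2 change of 2.62 ± 0.63 (1.91 ± 0.59 after TMM scaling).

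The proteasome, which degrades proteins marked with ubiquitin, gave close medians in the 2 M-D+ libraries. Of 36 tested rows, 17 were called higher and none lower, beside 11.3% higher over all rows, and 6 of the 36 passed the filter only through M-D+. The median log2 change was 1.24, or 0.54 after TMM scaling, with medians after TMM scaling of 0.59 in library 1 and 0.55 in library 2. The list held 0.113% and 0.106% of the tags in M-D-, 0.0932% and 0.0895% of those in M+D-, and 0.225% and 0.245% of those in M-D+. After TMM scaling both M-D+ libraries lay above both M-D- libraries in 24 rows and below them in none. Over all tested rows these shares were 27.6% and 22.6%. Fitted alone, library 1 had 12 called rows and library 2 had 1, beside 14.7% and 2.43% of all rows called higher. The core subunit gene psma3 was at 54.5 and 47.1 CPM in M-D- and 141 and 142 CPM in M-D+, a log2 change of 1.47 ± 0.26 (0.76 ± 0.27 after TMM scaling). The core subunit gene psmb3 was at 35.4 and 30.8 CPM and then at 97.5 and 113 CPM, a log2 change of 1.64 ± 0.31 (0.94 ± 0.31 after TMM scaling). The activator gene psme1, which is interferon-inducible in mammals, was at 24.3 and 21.9 CPM and then at 68.4 and 100.1 CPM, a log2 change of 1.80 ± 0.32 (1.1 ± 0.33 after TMM scaling). All 3 lay above the M+D- libraries as well, which reached 38.2 CPM at most for psma3.

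The lists of mitochondrial genes, all nuclear-encoded, differed in their medians. Of 40 tested rows of mitochondrial ribosomal proteins, 3 were called higher, beside 11.3% of all rows, and the median of 0.89 became 0.20 after TMM scaling. Of 62 rows of oxidative phosphorylation, 7 were called higher, beside the same 11.3% of all rows. Their median of 0.71 became 0.01, close to that of all rows. Of 23 rows of mitochondrial proteostasis and import, 6 were called higher, and the median of 1.08 became 0.40. No member of these lists was called lower, and 5, 0 and 2 rows passed the filter only through M-D+. The medians of these lists were 1.0, 0.71 and 1.17 in library 1 and 0.66, 0.61 and 0.71 in library 2. Over all rows they were 0.78 and 0.67. The ribosomal protein gene mrpl16 was at 13.6 and 15.4 CPM in M-D-, 15.9 and 13.9 CPM in M+D-, and 33.9 and 34.4 CPM in M-D+ (log2 change 1.18 ± 0.28, and 0.50 ± 0.28 after TMM scaling). The mitochondrial elongation factor gene tufm, which delivers aminoacyl-tRNA to the mitochondrial ribosome, was at 4.09 and 6.07 CPM and then at 30.3 and 20.6 CPM (2.12 ± 0.41, and 1.45 ± 0.37 after TMM scaling). It was the only 1 of 9 tested mitochondrial translation factors to be called, and their median of 0.30 became -0.40 after TMM scaling. Both M-D+ libraries then lay above both M-D- libraries in 3 rows and below them in 4. Over all tested rows these shares were 27.6% and 22.6%. The matrix protease gene clpp was at 42.5 and 46.4 CPM and then at 93.3 and 104 CPM (1.13 ± 0.26, and 0.43 ± 0.26 after TMM scaling). The matrix chaperone gene hspa9 was at 25.7 and 39.7 CPM and then at 165 and 78.2 CPM, with a log2 change of 1.80 ± 0.44 (1.1 ± 0.39 after TMM scaling). The chaperonin gene hspd1, at 51.6 and 44.0 CPM in M-D- and 194 and 136 CPM in M-D+, missed the threshold (log2 change 1.75 ± 0.47, limma adjusted p = 0.051, and 1.04 ± 0.44 after TMM scaling). Its M+D- libraries stood at 16.9 and 10.2 CPM, below M-D-.

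Of the respiratory chain, the complex III gene uqcrc1 had the largest change of the named members, at 24.8 and 42.7 CPM in M-D- and 112 and 186 CPM in M-D+ (log2 change 2.12 ± 0.45, and 1.41 ± 0.44 after TMM scaling). Its M+D- libraries stood at 80.9 and 41.55 CPM. The complex IV gene cox7a2a was at 83.8 and 76.3 CPM and then at 219 and 216 CPM, a log2 change of 1.43 ± 0.28 (0.73 ± 0.27 after TMM scaling). The complex I gene ndufs1 was at 33.4 and 34.7 CPM and then at 82.0 and 85.4 CPM, a log2 change of 1.27 ± 0.26 (0.58 ± 0.26 after TMM scaling). In these last 2 genes the replicates of each group nearly coincided.

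Part of the integrated stress response list was called higher. Of 15 tested rows, 4 were called higher and none lower, beside 11.3% higher over all rows. The median log2 change was 1.2 (0.54 after TMM scaling), against 0.73 and 0.07 over all rows, and none of the 15 passed the filter through 1 group only. After TMM scaling both M-D+ libraries lay above both M-D- libraries in 7 rows and below them in none. Over all tested rows these shares were 27.6% and 22.6%. On the deposited scale the median was 1.47 in library 1 and 0.95 in library 2, beside 0.78 and 0.67 over all rows. The transcription factor gene atf3 was at 5.22 and 3.69 CPM in M-D-, 1.59 and 0.88 CPM in M+D-, and 25.6 and 26.7 CPM in M-D+, a log2 change of 2.33 ± 0.35 (1.66 ± 0.35 after TMM scaling, limma adjusted p = 0.0934). The gene atf4b, one of the zebrafish ATF4 genes, was at 31.1 and 35.3 CPM in M-D-, 41.4 and 38.7 CPM in M+D-, and 134 and 97.6 CPM in M-D+, a log2 change of 1.75 ± 0.34 (1.05 ± 0.30 after TMM scaling). Cysteinyl-tRNA synthetase, cars1, was at 23.2 and 25.8 CPM and then at 115 and 58.0 CPM, a log2 change of 1.70 ± 0.37 (1.01 ± 0.35 after TMM scaling). For all 3 the treated libraries lay above all 4 untreated ones. Asparagine synthetase, asns, an ATF4 target, was at 14.8 and 15.0 CPM in M-D- and 99.3 and 35.8 CPM in M-D+ and did not pass (log2 change 1.94 ± 0.61, limma adjusted p = 0.0652, and 1.25 ± 0.56 after TMM scaling). Cystathionine gamma-lyase, cth, which makes cysteine and is another known ATF4 target, was taken from the list of amino acid breakdown. It was at 15.5 and 10.8 CPM in M-D- and 58.9 and 56.4 CPM in M-D+, a log2 change of 2.07 ± 0.34 (1.38 ± 0.33 after TMM scaling).

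Cytosolic ribosomal proteins stood on the other side of the general shift. Of 70 tested rows none was called in either direction, with a median log2 change of -0.17, or -0.88 after TMM scaling. After TMM scaling both M-D+ libraries lay below both M-D- libraries in 49 rows and above them in none. Over all tested rows these shares were 22.6% and 27.6%. The 2 libraries differed on the deposited scale: the median was 0.32 in library 1 and -0.66 in library 2. The list took 37.5% and 31.7% of the tags in M-D-, 26.6% and 31.8% of those in M+D-, and 33.3% and 20.3% of those in M-D+, so that only library 2 lay below all 4 untreated libraries. After TMM scaling the list's median was -0.43 in library 1 and -1.32 in library 2, beside 0.08 and 0.06 over all rows. One of the members with the smallest p, rps4x, was at 649 and 453 CPM in M-D-, 296 and 392 CPM in M+D-, and 355 and 227 CPM in M-D+, a log2 change of -0.93 ± 0.34 (limma adjusted p = 0.0871) and of -1.64 ± 0.36 after TMM scaling. One treated library lay within the range of the M+D- libraries. Among 54 rows of translation initiation and elongation factors, 7 were called higher and none lower, beside 11.3% higher over all rows. The list's median was 0.41, or -0.28 after TMM scaling. The initiation factor gene eif4a1a was at 28.6 and 30.1 CPM in M-D- and 130 and 75.7 CPM in M-D+, a log2 change of 1.72 ± 0.32 (1.02 ± 0.31 after TMM scaling). The 26 rows of ribosome biogenesis had no call and a median of 0.77, with 1.38 in library 1 and 0.23 in library 2.

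**Figure D4:**
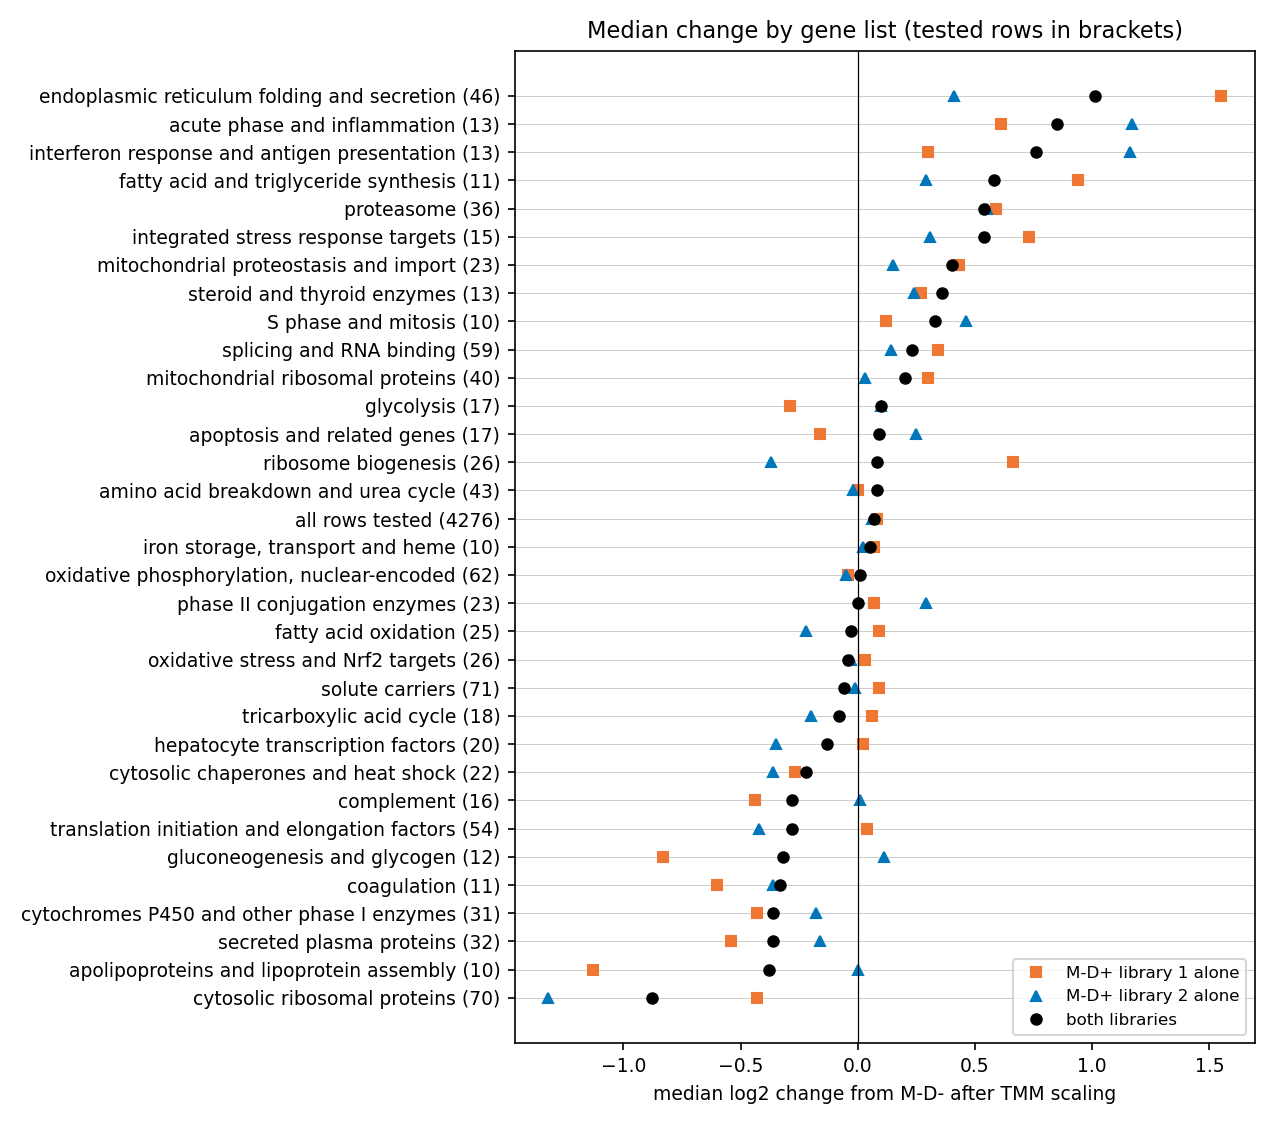
Median log2 change from M-D- after TMM scaling (x axis) of each pathway list with at least 10 tested rows (y axis, rows tested in brackets), for both M-D+ libraries together (black circles), library 1 alone (orange squares) and library 2 alone (blue triangles). The endoplasmic reticulum list has the largest median (1.01) and the cytosolic ribosomal proteins the lowest (-0.88), and the distance between square and triangle shows how far the 2 treated libraries differ.

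Genes of drug clearance did not move as 1 group. Of 31 tested rows of cytochromes P450 and other phase I enzymes, 4 were called higher and 1 (adh8a, above) lower. Over all rows 11.3% were called higher and 0.631% lower. The list's median of 0.33 became -0.36 after TMM scaling. The cytochrome P450 gene cyp3c1 was at 35.2 and 36.9 CPM in M-D-, 51.6 and 46.4 CPM in M+D-, and 139 and 138 CPM in M-D+, a log2 change of 1.91 ± 0.32 (1.21 ± 0.29 after TMM scaling). The flavin monooxygenase gene fmo5 was at 26.6 and 23.9 CPM and then at 77.9 and 109 CPM, a log2 change of 1.83 ± 0.35 (1.13 ± 0.40 after TMM scaling). The carbonyl reductase gene cbr1 was at 3.18 and 2.60 CPM and then at 11.9 and 10.2 CPM, a log2 change of 1.63 ± 0.33 (1.0 ± 0.32 after TMM scaling), having passed the filter only through M-D+. The M+D- libraries stood at 58.6 and 70.5 CPM for fmo5 and at 7.57 and 5.75 CPM for cbr1. In both genes they lay above M-D- and below both treated libraries. The aryl hydrocarbon receptor target cyp1a was at 1420 and 1883 CPM in M-D-, 2372 and 2686 CPM in M+D-, and 953 and 929.9 CPM in M-D+. Both treated libraries lay below all 4 untreated ones, but the change did not pass on either scale (log2 change -0.80 ± 0.29 with limma adjusted p = 0.0871, and -1.50 ± 0.27 with limma adjusted p = 0.066 after TMM scaling). The intestinal and liver cytochrome gene cyp3a65 was at 47.9 and 105 CPM in M-D- and 43.4 and 110.3 CPM in M-D+, so that the groups overlapped. No row of the 23 phase II conjugation enzymes was called. The heme synthesis gene alas1, whose enzyme supplies the heme that cytochromes P450 need, was called higher, at 162 and 128 CPM in M-D-, 76.5 and 104 CPM in M+D-, and 827 and 343 CPM in M-D+ (log2 change 1.88 ± 0.44, and 1.17 ± 0.43 after TMM scaling). Of 26 rows of oxidative stress and Nrf2 targets, 5 were called higher, beside 11.3% of all rows. Among them was gclm, a subunit of the enzyme that starts glutathione synthesis. It was at 5.45 and 6.51 CPM in M-D- and 27.3 and 18.8 CPM in M-D+ (log2 change 1.77 ± 0.32, and 1.1 ± 0.31 after TMM scaling). The list's median was 0.66, or -0.04 after TMM scaling.

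None of 32 tested rows of secreted plasma proteins was called, beside 11.3% called higher and 0.631% called lower over all rows. The list's median was 0.33, or -0.36 after TMM scaling, beside 0.73 and 0.07 over all rows. On the deposited scale both M-D+ libraries lay above both M-D- libraries in 11 rows and below them in 3. Over all tested rows these shares were 60.5% and 5.64%. After TMM scaling they lay above in 2 rows and below in 12, beside 27.6% and 22.6% of all tested rows. The vitamin D-binding protein gene gc was at 3890.1 and 4467 CPM in M-D-, 4186 and 4516 CPM in M+D-, and 1535 and 2348 CPM in M-D+, a log2 change of -1.13 ± 0.35 (limma adjusted p = 0.0632) and of -1.84 ± 0.34 after TMM scaling. Both treated libraries lay below all 4 untreated ones. The apolipoprotein gene apoa1a, main protein of high-density lipoprotein, was at 1589.7 and 1679 CPM in M-D- and 1339 and 3462 CPM in M-D+, 1 treated library on each side. The bile acid synthesis gene cyp7a1 was at 19.3 and 44.5 CPM in M-D-, 58.4 and 114 CPM in M+D-, and 11.9 and 12.5 CPM in M-D+, and did not pass (log2 change -1.21 ± 0.80, limma adjusted p = 0.281, and -1.85 ± 0.77 after TMM scaling).

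The lists of glycolysis, fatty acid oxidation and amino acid breakdown had medians between 0.68 and 0.71, beside 0.73 over all rows. Over all rows 11.3% were called higher. Of 17 tested rows of glycolysis, 3 were called higher (median 0.69, and 0.10 after TMM scaling), and the list held 1.25% and 3.01% of the tags in M-D-, against 0.892% and 1.18% in M-D+. Besides pkma, these were aldoaa, an aldolase gene, at 13.4 and 15.4 CPM in M-D- and 43.4 and 42.8 CPM in M-D+ (log2 change 1.52 ± 0.27, and 0.83 ± 0.28 after TMM scaling), and the lactate dehydrogenase gene ldha, at 1.59 and 1.95 CPM and then at 14.9 and 5.44 CPM (1.87 ± 0.48, and 1.27 ± 0.45 after TMM scaling). The M+D- libraries of aldoaa stood at 26.5 and 33.15 CPM, above M-D- and below both treated libraries. The ldha row passed the filter only through M-D+, as did 4 of the 17. The list thus held a smaller share of tags in both treated libraries while its called members stood higher. Of 25 rows of fatty acid oxidation, 1 was called, hadhab, a trifunctional protein subunit, at 19.1 and 25.2 CPM in M-D- and 75.5 and 72.0 CPM in M-D+ (1.71 ± 0.31, and 1.01 ± 0.28 after TMM scaling). The list's median was 0.68, or -0.03 after TMM scaling. Of 43 amino acid breakdown and urea cycle rows, 4 were called higher (median 0.71, and 0.08 after TMM scaling). Besides cth, they included gcdha, glutaryl-CoA dehydrogenase, at 47.9 and 75 CPM in M-D- and 218 and 169 CPM in M-D+ (1.66 ± 0.32, and 0.96 ± 0.28 after TMM scaling). The M+D- libraries of gcdha stood at 103 and 102 CPM, above M-D- and below both treated libraries. The medians of these lists were 0.36, 0.81 and 0.7 in library 1 and 0.75, 0.39 and 0.53 in library 2. Over all rows they were 0.78 and 0.67. The 12 tested rows of gluconeogenesis and glycogen, of which 2 were called higher, had a lower median of 0.35, or -0.32 after TMM scaling, with -0.83 in library 1 and 0.11 in library 2.

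Of 59 tested rows of splicing and RNA binding, 8 were called higher and none lower, beside 11.3% higher over all rows (median 0.90, and 0.23 after TMM scaling), and 3 of the 59 passed the filter only through M-D+. The gene cirbpa, a cold-inducible RNA-binding protein, was at 253 and 266 CPM in M-D-, 342 and 283 CPM in M+D-, and 549 and 636 CPM in M-D+ (log2 change 1.19 ± 0.27, and 0.48 ± 0.28 after TMM scaling). All 4 untreated libraries lay below both treated ones. The cyclin D1 gene ccnd1, which drives entry into the cell cycle, was at 25.9 and 28.6 CPM and then at 83.8 and 58.2 CPM (1.33 ± 0.31, and 0.63 ± 0.29 after TMM scaling). Of 10 tested rows of S phase and mitosis, 2 were called higher (median 0.97, and 0.33 after TMM scaling). Of 71 solute carrier rows, 4 were called higher, beside 11.3% of all rows, and none of 20 hepatocyte transcription factor rows was called. Among the latter, foxa2 was at 80.9 and 83.1 CPM in M-D- and 66.6 and 50.1 CPM in M-D+ (-0.50 ± 0.30, limma adjusted p = 0.237, and -1.19 ± 0.31 after TMM scaling).

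Of the immune lists, a few members were called higher, and the medians were larger in library 2 than in library 1. Over all tested rows 11.3% were called higher. Of 13 tested rows of interferon response and antigen presentation, 3 were called higher, and of 13 rows of acute phase and inflammation 3 were. The medians were 1.46 and 1.54, or 0.76 and 0.85 after TMM scaling, when they were 0.30 and 0.61 in library 1 and 1.16 and 1.17 in library 2. Of the tested rows, 2 and 5 passed the filter only through M-D+. The gene b2m, the light chain of MHC class I, was at 82.9 and 133 CPM in M-D-, 155 and 123 CPM in M+D-, and 375 and 376 CPM in M-D+, a log2 change of 1.83 ± 0.31 (1.12 ± 0.29 after TMM scaling). The gene nfkbiaa, an NF-kappaB inhibitor that NF-kappaB itself induces, was at 2.95 and 2.17 CPM in M-D- and 23.2 and 27.2 CPM in M-D+, a log2 change of 2.88 ± 0.48 (2.23 ± 0.48 after TMM scaling), and passed the filter only through M-D+. The antiviral gene rsad2 was at 1.59 and 1.3 CPM and then at 7.13 and 10.9 CPM, a log2 change of 2.01 ± 0.45 (1.41 ± 0.47 after TMM scaling). It too passed the filter only through M-D+. In b2m and nfkbiaa the treated libraries nearly coincided. The complement genes c1qa, c1qb and c1qc, which macrophages express, were called higher too, with log2 changes of 1.95 ± 0.52, 1.79 ± 0.42 and 2.16 ± 0.45, or 1.36 ± 0.50, 1.11 ± 0.44 and 1.49 ± 0.44 after TMM scaling. Of 16 tested complement rows, 4 were called higher, beside the same 11.3% of all rows. The list's median was 0.39, or -0.28 after TMM scaling. The gene c1qa passed the filter only through M-D+, and at 5.35 and 15.6 CPM there it overlapped the M+D- libraries, at 8.76 and 4.86 CPM. The gene c1qc was at 6.59 and 8.89 CPM in M-D-, 17.3 and 13.3 CPM in M+D-, and 23.8 and 59.6 CPM in M-D+.

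The macrophage, stellate cell and bile duct marker lists held a larger share of tags in M-D+ library 2 than in any untreated library. So did the hepatocyte, intestine, skin, lymphocyte and endothelial lists, and the hepatocyte list stood at 25.1% there, against at most 21.2% in untreated libraries. The erythrocyte, exocrine pancreas, muscle, and egg yolk and egg coat lists did not. The 13 listed macrophage and myeloid markers took 0.0347% and 0.0477% of the tags in M-D-, 0.0511% and 0.0440% of those in M+D-, and 0.0483% and 0.115% of those in M-D+. The 8 tested had a median after TMM scaling of -0.06 in library 1 and 1.56 in library 2. Of these 8, 3 were called higher, beside 11.3% of all rows. These 3 are the C1q genes above and add no further call. On the deposited scale both M-D+ libraries lay above both M-D- libraries in 6 of the 8, beside 60.5% of all tested rows. The groups overlapped in 2, among them mpx, at 22.0 and 46.8 CPM in M-D- and 28.5 and 37.8 CPM in M-D+. Deposited medians of the 8 were 0.66 in library 1 and 2.2 in library 2, beside 0.78 and 0.67 over all rows. The defining markers csf1ra and lyz were at or below 0.23 CPM in all 4 libraries, and mpeg1.1 was at 0 and 0.65 CPM in M-D- and 2.97 and 3.40 CPM in M-D+. Stellate cell and fibroblast markers took 0.00354% and 0.00293% of tags in M-D-, against 0.00511% and 0.0377% in M-D+. The smooth muscle actin gene acta2 was at 19.3 and 16.1 CPM in M-D- and 30.3 and 275 CPM in M-D+, and the collagen gene col1a1a was at 9.54 and 6.29 CPM and then at 9.51 and 62.5 CPM. Neither was called, and both were far higher in library 2 than in library 1. In library 1 acta2 lay above both M-D- libraries on the deposited scale, while col1a1a lay within their range. The marker vim was at 0 in all 4 libraries. Bile duct markers held 0.201% and 0.230% of tags in M-D-, against 0.136% and 0.514% in M-D+, and none of the 4 tested was called. The largest member, krt8, was at 1283 and 1311 CPM in M-D- and 792 and 2702 CPM in M-D+. Next came krt18a.1, at 498 and 942 CPM and then at 536 and 1827 CPM. The duct marker sox9b was at or below 0.59 CPM in all 4 libraries. None of the endothelial and lymphocyte markers reached the filter, and tie1 was at 0 in all 4 libraries. Exocrine pancreas markers, from tissue next to the liver, held 0.411% and 0.20% of tags in M-D-, against 0.295% and 0.142% in M-D+, with none of 15 rows called. The trypsin gene prss1 was at 1460.2 and 618 CPM in M-D- and 882 and 478 CPM in M-D+. Of the 3 tested markers of intestine and the 3 of skin, 1 each was called higher, anxa2b and icn, and the list medians were -0.40 and 0.36, or -0.95 and -0.28 after TMM scaling. The annexin gene anxa2b was at 4.77 and 5.64 CPM in M-D- and 14.9 and 33.1 CPM in M-D+, and icn was at 32.9 and 36.2 CPM and then at 79.1 and 198 CPM. Their log2 changes were 1.91 ± 0.42 and 1.83 ± 0.44, or 1.25 ± 0.42 and 1.13 ± 0.44 after TMM scaling. The part that cell makeup had in the changes above was not tested.

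The 2 treated libraries were also set against M-D- one at a time on the deposited scale. Library 1 alone gave 628 rows called higher (14.7%) and 32 lower (0.748%), and library 2 alone gave 104 higher (2.43%) and 15 lower (0.351%). Of the 511 rows called with both libraries, 340 were called in the same direction with library 1 alone and 60 with library 2 alone. In all, 42 rows were called in the same direction with either library alone, 31 of them higher and 11 lower. After TMM scaling, library 1 alone gave no call (1034 rows at an unadjusted p below 0.05) and library 2 alone gave none higher and 4 lower (0.0935%).

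Of the pathway lists, cholesterol synthesis had the widest gap between the treated libraries. Its 7 tested rows, 1 of which passed the filter only through M-D+, had a median log2 change of 2.34 in library 1 and 0.71 in library 2, or 1.6 and 0.09 after TMM scaling. Over all rows these medians were 0.78 and 0.67, or 0.08 and 0.06 after TMM scaling. With both libraries in the fit, 0 of the 7 passed, beside 11.3% called higher and 0.631% called lower over all rows. The HMG-CoA synthase gene hmgcs1, which feeds the pathway, was at 18.2 and 16.7 CPM in M-D-, 3.98 and 0.88 CPM in M+D-, and 400.0 and 53.7 CPM in M-D+ (log2 change 3.01 ± 0.90, limma adjusted p = 0.0608, and 2.31 ± 0.86 after TMM scaling). The estrogen receptor gene esr1 was at 12.3 and 23.9 CPM in M-D- and 129 and 8.38 CPM in M-D+, so that library 1 lay above both untreated libraries and library 2 below both. The endogenous myc gene mycb was at 70.7 and 73.7 CPM in M-D-, 27.5 and 20.6 CPM in M+D-, and 115 and 22.4 CPM in M-D+, again with 1 treated library on each side of M-D-.

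The largest departures of 1 treated library from M-D- that the other treated library did not share were as follows. The genes lclat1, arfgap2 and prpsap2 were high in library 1, but the 2 untreated libraries differed widely as well. As an example, lclat1, an acyltransferase gene of phospholipid remodelling, was at 30.2 and 179 CPM in M-D- and 1207 and 150 CPM in M-D+. The genes anxa4, lcn15 and krt5 were low in library 1, and anxa4, at 224 and 36.4 CPM in M-D- and 17.8 and 590 CPM in M-D+, was also spread over both groups. In library 2, grna.2, sacs2 and col1a1a were high and fabp1b.1, sec61g and sat2a.2 were low. The translocon subunit gene sec61g was at 137 and 139 CPM in M-D- and 279 and 5.89 CPM in M-D+, and the M+D- libraries, without the drug, were at 6.17 and 7.29 CPM. The fatty acid-binding protein gene fabp1b.1 followed the same order, at 69.3 and 66.6 CPM in M-D-, 108 and 1.36 CPM in M-D+, and 5.18 and 6.19 CPM in M+D-. For both genes a low level was thus seen in libraries with and without doxycycline.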

How the data were processed

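Of 8 zebrafish liver libraries made by 3' RNA-SAGE, the M-D+ and M-D- libraries were compared, grouped by sample title. Per the file headers, each deposited file pairs GI numbers with RefSeq accessions and CPM values, which the authors scaled to the tag total of the library. Neither the aligner and build nor the tag assignment rule is given in the sources used here. Files were joined on GI number, and an absent row counted as 0. In every library the deposited CPM values are multiples of the worth of 1 tag. Divided by it, 100% of values came out within 0.1 of a whole tag in all 8 libraries, which gave the library totals and tag counts. One tag was worth 0.594 CPM in M-D+ library 1 and 0.217 to 0.227 CPM in the other libraries of the comparison, so a value of 0 allows up to 1.78 CPM (3 tags) in M-D+ library 1 and up to 0.651 to 0.681 CPM in the others. These limits cover counting error only, since tags carry no molecular identifiers.

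Rows that reached 5 CPM in 2 or more of the 4 libraries were tested with limma 3.58.1 (R 4.3.3), two-sided, on log2(CPM + 1) with an intensity trend, in 1 fit of the 4 group means of all 8 libraries (4 residual and 3.95 prior degrees of freedom, 4.0 prior after scaling). P-values were adjusted by Benjamini-Hochberg over the 4276 rows, at a threshold of 0.05. The same fit was run after division by TMM factors (edgeR 4.0.16). With the pseudocount of 1, log2 changes of low rows come out too small. Each M-D+ library was also fitted alone, where the lone library was assumed to vary like the other groups. The edgeR quasi-likelihood test and DESeq2 1.42.0 were run on the recovered tag counts as alternatives, with other pseudocounts (0.5 and 5), filters (none, or 20 CPM), scalings, library sets and a replicate block. Replicate libraries differed beyond sampling noise in every group (chi-square over rows, 48.9 to 147 per degree of freedom). Separate libraries of 1 RNA sample can differ in this way too, so the test cannot tell if replicates are technical repeats. Each library entered the fits as a replicate of its group. The fitting code was tested on simulated data.

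RefSeq's gene table (assembly GRCz12tu) served for symbols only: 82.5% of tested rows had one. A tag may fit several transcripts with the same 3' end, so members of gene families are uncertain in that respect. Gene lists (39 pathway and 12 marker lists), the naming rule and the comparison itself were chosen with earlier results of these data known, and stray symbols were removed from the lists by symbol before any fit. Genes named are the 12 called rows with the largest change in each direction with a symbol, 20 CPM or more on average and both M-D+ libraries beyond both M-D- libraries, the rows with the smallest p after TMM scaling, up to 3 called members a list in each direction (otherwise the 2 with the smallest p), the 3 largest departures of each M-D+ library that the other did not share, and a few fixed genes; others are said to be outside the rule. Of the genes that meet the rule, 1 is not reported here. Of the fixed genes, hbaa1 was below the filter and vtg1 was not among the rows used here.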

Additional observations from a re-analysis of the deposited data

How the results depend on the processing

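The count on the deposited scale was 511 rows. It stayed within 1.5 times of that with a pseudocount of 0.5 (420), at least 20 CPM in 2 libraries (479), M+D+ left out of the fit (355) and the crossed pairing (612, added after the data were seen, since deviations of same-numbered libraries correlated at -0.132). It was 780 with a pseudocount of 5, 3 with no filter on low values, 0 with the 4 libraries alone, 0 in the edgeR quasi-likelihood test (also the value set beside the TMM count), 163 in DESeq2 (2487 rows without an adjusted p), 1 with TMM scaling, 1 with median-of-ratios scaling and 35 with upper quartile scaling (5 higher, 30 lower). Leaving out 1 library gave 0 to 660. With the replicate number as a block, 0 rows were called on either scale, but the labels give no ground for the pairing beyond the shared numbers.

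After TMM scaling the count was 1. It was 0 with a pseudocount of 0.5, 12 with one of 5 (3 higher, 9 lower), 9 with no filter (all lower), 0 with the 4 libraries alone, 2 with M+D+ left out and 0 with the crossed pairing. Leaving out 1 library gave 0 to 4. No gene named here and called on the deposited scale changed direction under any setting run. Depth limits rows near the filter most in M-D+ library 1. Limma on the deposited scale gave 484 higher and 27 lower calls, with a median log2 change of 0.73. DESeq2, which rescales the libraries, gave 31 higher and 132 lower, with a median of 0.06. These 2 counts are thus on different scales. The causes of these differences were not tested.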
